A study of Drosophila melanogaster with 2 samples.

Results

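The genes ssp3, COX7AL2 and cbt lie far apart on chromosome arm 2L of Drosophila melanogaster, and each has strong CG31224-eGFP peaks in the ranked peak lists that the thresholded lists leave out. The peaks described here were selected on their deposited peak signal: every peak with a signal of 50 or more within 10 kb of 1 of the 3 genes, in each of 4 ranked lists. The main ranked list, made from both replicates, held 27 such peaks among 4350 with that signal and 99800 in all. Of the 27 peaks, 6 were at ssp3, 14 at COX7AL2 and 7 at cbt. The genes were picked because of these left-out peaks, so the signals and the left-out status are given as a description, with no test.

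The samples were whole embryos aged 0 to 24 h that expressed CG31224 fused to eGFP, and the chromatin was precipitated with an antibody to GFP. There were 2 biological replicates in 1 group, and the labels give no untreated or wild-type group. In a mixture of all embryonic tissues and stages, few cells with much bound protein and many cells with little cannot be told apart. Each replicate had a ranked list and a thresholded list, and the replicates together had a main and a conservative version of each. The thresholded lists hold peaks past a limit on the irreproducible discovery rate (IDR). It is the estimated share of peaks of that rank that would not recur between the peak sets compared. The scores in the list of a single replicate are not taken here as agreement between the 2 biological replicates.

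In chromatin immunoprecipitation, DNA bound by a tagged protein is enriched and sequenced, and a peak marks where reads pile up over a control. ssp3, short spindle 3, carries the name of the short mitotic spindles seen when such genes are depleted in cultured fly cells. COX7AL2 is annotated as a relative of a small subunit of cytochrome c oxidase, the terminal enzyme of the respiratory chain. cbt, cabut, encodes a zinc finger transcription factor of the Krüppel-like family with roles in dorsal closure of the embryo, downstream of Jun kinase signalling, and in the response to dietary sugar. cbt lies inside ush (u-shaped), on the opposite strand. ush encodes a FOG-family cofactor of the GATA factor Pannier.

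The sequences at the summits of 6 left-out peaks are shown because these are the strongest peaks at the 3 genes. Left-out summits at cbt also had a lower median G and C content than those at ssp3 and COX7AL2. Each line gives 101 bases centred on the summit, from the RefSeq copy of the dm6 assembly, on the plus strand. Capitals mark the letters GAGCGNGAC on either strand where the whole word falls in the window.
ssp3, 2L:18944302-18944402: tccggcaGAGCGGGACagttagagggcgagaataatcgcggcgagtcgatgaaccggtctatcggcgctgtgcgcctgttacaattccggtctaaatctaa
ssp3, 2L:18944771-18944871: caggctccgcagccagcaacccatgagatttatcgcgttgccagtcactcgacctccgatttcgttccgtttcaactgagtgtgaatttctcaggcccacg
COX7AL2, 2L:2193550-2193650: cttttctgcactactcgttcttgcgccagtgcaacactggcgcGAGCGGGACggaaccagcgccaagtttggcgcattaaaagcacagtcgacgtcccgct
COX7AL2, 2L:2197035-2197135: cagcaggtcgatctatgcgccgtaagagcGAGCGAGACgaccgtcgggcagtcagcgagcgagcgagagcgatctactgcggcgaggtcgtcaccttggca
COX7AL2, 2L:2198802-2198902: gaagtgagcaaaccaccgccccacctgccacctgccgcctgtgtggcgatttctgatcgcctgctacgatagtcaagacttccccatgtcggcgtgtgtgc
cbt, 2L:481040-481140: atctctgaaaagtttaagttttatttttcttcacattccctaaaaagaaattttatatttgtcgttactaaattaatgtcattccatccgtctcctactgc

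Of the 27 peaks, 16 were in no thresholded list and 11 were held by at least 1, where held means an overlap of at least 1 bp. The 16 were 2 of 6 at ssp3, 10 of 14 at COX7AL2 and 4 of 7 at cbt. Over the whole main ranked list, 459 of 4350 peaks with a signal of 50 or more were left out, a share of 10.6%. The same count at the 3 genes was 16 of 27 in the conservative ranked list, where the background was also 10.6%. It was 16 of 25 in the list of replicate 1, against a background of 4.1%, and 17 of 25 in that of replicate 2, against 4.06%. A signal of 50 is a stricter limit in the replicates' lists, where 1755 and 1821 peaks reached it. The signal in the main list was a median of 1.00 times the sum of the 2 replicates' signals. The backgrounds of the main and the replicates' lists are therefore not alike. Since the genes were chosen for these peaks, nothing is read from the distance to the background.

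A low IDR score did not separate the left-out peaks from the held ones. All 27 peaks had the score of 1000, the highest the scale allows, and the thresholded lists begin at 830, an IDR of 1%. For the 16 left-out peaks the deposited −log10 IDR was 5 in the main list, which is its cap. Of the held peaks, the 3 at cbt had lower values than any left-out one, at 4.15, 3.25 and 2.76. Among all 459 strong peaks left out, 339 scored below 830 and 120 scored 830 or more.

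Of the peaks scoring 830 or more, each thresholded list lacked a small part. The main thresholded list lacked 130 of 3945, or 3.3%, and the conservative list lacked 129 of 3826, or 3.37%. The list of replicate 1 lacked 94 of 2499, or 3.76%, and that of replicate 2 lacked 95 of 2699, or 3.52%. Of the 130 in the main list 62 lay on 3R, 43 on 2L and 25 elsewhere, and 16 of the 43 on 2L were the left-out peaks at ssp3, COX7AL2 and cbt. Per the deposited description files, making the thresholded lists took 1 input file more than making the ranked ones. Its contents were not analysed here, and whether it bears on the left-out peaks was not tested.

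At ssp3 (FBgn0032723, 2L:18916347-18943960, minus strand) the left-out peaks were 2 summits within 1 interval just upstream of the start site. The interval, 2L:18944174-18945028, is 855 bp wide and intergenic. Its summits lay 392 and 861 bp upstream of the ssp3 start site and 469 bp from each other. The nearer summit had a signal of 2018 in the main list, 1134 in replicate 1 and 1014 in replicate 2. The farther one had 1460 in the main list, 930 in replicate 1 and 667 in replicate 2. Both summits stood above every held peak at ssp3 in each replicate.

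The 4 held peaks at ssp3 lay farther upstream, from 1922 to 4579 bp from its start site, and had signals from 162 to 537. Their nearest start sites belonged to other genes. The weakest, with 162 in the main list, 96.1 in replicate 1 and 63.9 in replicate 2, fell in an exon of the noncoding RNA lncRNA:CR44740. The strongest, with 537, lay 957 bp upstream of CG10428 and shared a 787-bp interval with a summit of 349 nearest to CG46304. A peak of 494 lay 345 bp upstream of CG10428. Within the 27614-bp ssp3 gene itself no ranked peak reached 50: the highest signal below the limit in the window was 48.7.

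COX7AL2 (FBgn0085201, 2L:2192525-2197912, minus strand) had the largest number of left-out peaks of the 3 genes, 10 summits in 5 intervals over 7364 bp. They ran from inside the gene to upstream of it. The annotation gives start sites at 2193010 and 2192963 for the short transcripts and at 2197912 for the long one. The interval nearest the short transcripts, 2L:2193357-2193880, was 524 bp wide with its summit 590 bp upstream of the start site at 2193010, in an intron of the long transcript. Its signal was 2015 in the main list, 1076 in replicate 1 and 937 in replicate 2. A weaker left-out peak 1594 bp upstream of the same start site had 306, 164 and 145 in the same order.

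A 1079-bp interval at 2L:2196446-2197524 held 3 summits, 2 in an intron of the long transcript and 1 in its 5' UTR. The intron summit at 2197085 had a signal of 1311 in the main list, 716 in replicate 1 and 617 in replicate 2. The intron summit at 2196666 had 1279, 770 and 624. The UTR summit, 599 bp downstream of the start site at 2197912, was weaker, with 522, 294 and 290. In each replicate's own list this summit fell in an intron instead. The next interval, 540 bp wide, crossed that start site in the main and the conservative list but not in the replicates' lists, with its summit 210 bp upstream and signals of 593, 323 and 267.

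The widest interval at the 3 genes, 2L:2198591-2200720, covered 2130 bp of intergenic DNA upstream of the long COX7AL2 transcript and held 4 summits. The summit nearest the gene, 940 bp upstream, had a signal of 1780 in the main list, 905 in replicate 1 and 860 in replicate 2. The one farthest from it, 2611 bp upstream, had 779, 483 and 238. Between them lay a summit of 435, 245 and 96.6 and a summit of 267, 160 and 125. The signal of replicate 2 was below that of replicate 1 at all 4 of these summits. The list of replicate 2 had 1 more summit in the stretch, with a signal of 314.

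The 4 held peaks at COX7AL2 flanked the left-out ones. The only one on the downstream side had 362 in the main list, 190 in replicate 1 and 169 in replicate 2, in an exon of lncRNA:CR44066. The other 3 lay 4184 to 5396 bp upstream of the COX7AL2 start site, between it and CG31668, whose annotated 3' end they approached. Of these, the summit nearest CG31668 had 525, 312 and 220, and the others 354, 218 and 126, and 166, 124 and 42.7. The held signals, from 166 to 525, overlapped the lower part of the left-out range at this gene, 267 to 2015.

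At cbt (FBgn0043364, 2L:476446-479688, minus strand) the left-out peaks were narrower and each had an interval of its own. The strongest, 2L:480914-481253, was 340 bp wide with its summit 1402 bp upstream of the cbt start site, in an intron of ush. It had a signal of 1472 in the main list, 668 in replicate 1 and 811 in replicate 2. A peak 382 bp upstream of the cbt start site had 282, 128 and 154, and one 2279 bp upstream had 166, 76.8 and 91.2. The fourth left-out peak, with 221, 118 and 109, lay on the other side of cbt, 305 bp upstream of CG4297 and beyond MED15, which encodes a Mediator subunit.

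The 3 held peaks at cbt were the weakest of the 27. They had signals of 113, 76.0 and 66.6 in the main list, and the first had 51.3 in replicate 1 and 61.6 in replicate 2. The second had 47.1 and 38.4, and the third 40.0 and 28.4, in replicates 1 and 2. At cbt every left-out peak therefore stood above every held one, in the main list and in each replicate. The highest signal below the limit of 50 was 43.8 at cbt and 49.8 at COX7AL2.

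**Figure D1:**
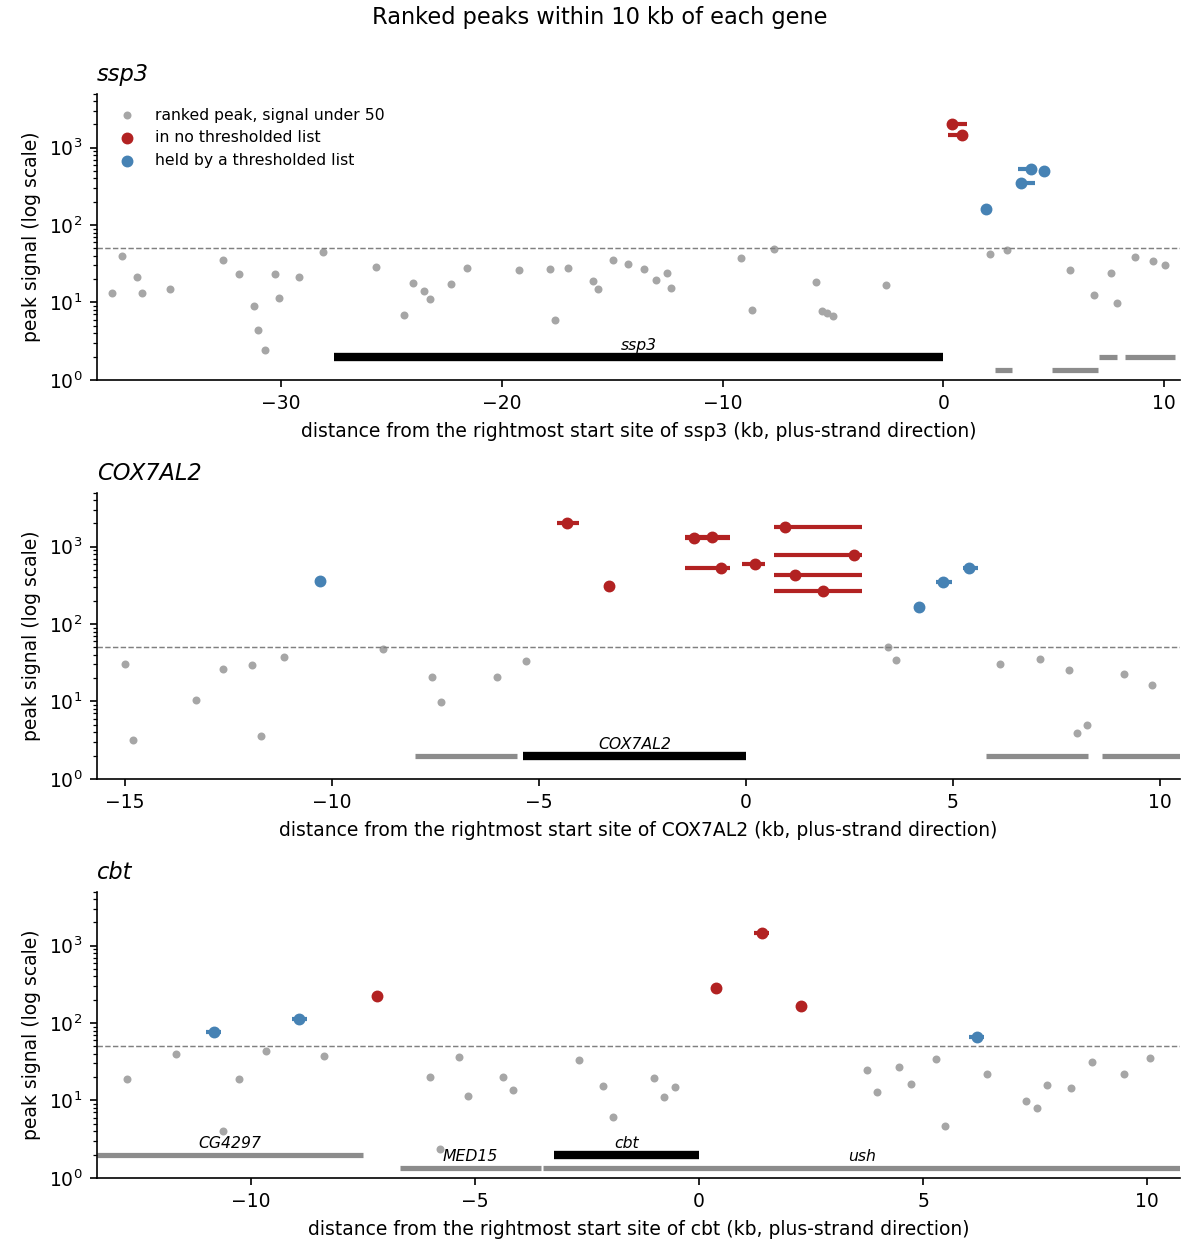
Peak signal (log scale) against distance from the rightmost start site of each gene (kb, plus-strand direction) for the ranked list of both replicates; points are summits, horizontal lines the peak intervals, black bars the 3 genes, grey bars other coding genes (upper row minus strand, lower row plus strand), and the dashed line a signal of 50. The left-out peaks (red) of ssp3 reach 2018 just upstream of the gene, those of COX7AL2 run over 7364 bp, and those of cbt peak at 1472 inside ush. Held peaks (blue) lie on both sides of the left-out ones at COX7AL2 and cbt, and only on the upstream side at ssp3.

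The replicates gave each of the 27 peaks a summit within 100 bp of that in the main list. The 2 replicates' summits lay 2 to 70 bp apart at the left-out peaks, with a median of 9.5 bp, and 1 to 129 bp apart at the held ones, with a median of 23 bp. Over all strong peaks paired this way the median was 21 bp. On the log2 scale, signal in replicate 1 exceeded that in replicate 2 by a median of 0.19 over the 16 left-out peaks (SD 0.43) and of 0.58 over the 11 held peaks (SD 0.45). Over the 4102 of 4350 strong peaks that could be paired, the median log2 ratio was -0.03 with an SD of 0.61.

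Among the left-out peaks the direction of the replicate difference was not the same at the 3 genes. All 10 left-out peaks at COX7AL2 and both at ssp3 were higher in replicate 1, whereas 3 of 4 at cbt were higher in replicate 2. Of the held peaks 10 of 11 were higher in replicate 1, among them 2 of the 3 at cbt. The log2 ratios of the left-out peaks ran from 0.16 to 0.48 at ssp3, from 0.02 to 1.34 at COX7AL2 and from -0.28 to 0.12 at cbt. At COX7AL2 the summits at 2199106 and 2200523 had ratios of 1.34 and 1.02. Of all 4350 strong peaks, 91.3% and 87.2% lay nearer to the overall median, with the unpaired ones counted as not nearer. Both ratios rest on the nearest summit of each replicate. At 2199106 the replicates' summits lay 68 bp apart. Near 2200523 replicate 2 was paired by its summit of 238, while a farther summit of replicate 2 there had 314. Peaks that share an interval share reads, so these counts are not independent observations.

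**Figure D2:**
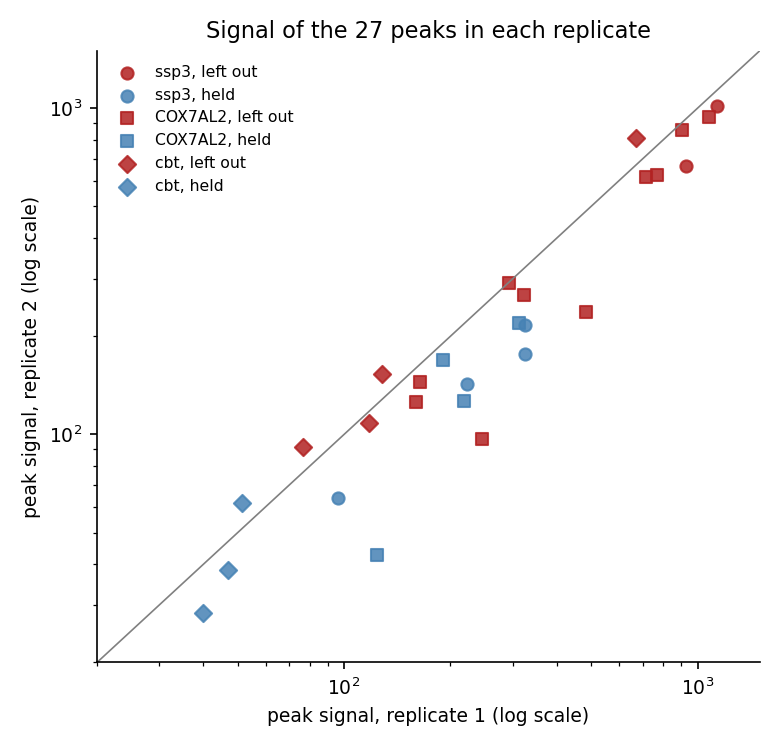
Peak signal in replicate 2 (vertical axis) against replicate 1 (horizontal axis), both on log scales, for the 27 peaks at ssp3 (circles), COX7AL2 (squares) and cbt (diamonds), left out in red and held in blue; the line marks equal signal. Most points lie below the line, the left-out peaks of cbt lie on both sides of it, and the left-out summits above 500 in replicate 1 reach up to 1134.

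By signal, the left-out peaks at the 3 genes sat in the upper classes of the main ranked list. All 7 of the peaks with a signal of 1000 or more at the 3 genes were left out, 3 of 5 with 500 to 1000, 5 of 9 with 200 to 500, 1 of 4 with 100 to 200 and 0 of 2 with 50 to 100. In the whole list, 16 of 66 peaks with 1000 or more were left out, a share of 24.2% (95% Wilson interval 15.5 to 35.8%). The share was 8.55% at 500 to 1000 (4.71 to 15.0%), 3.94% at 200 to 500 (2.54 to 6.07%) and 2.42% at 100 to 200 (1.66 to 3.52%). At 50 to 100 it was higher again, at 14.9% (13.6 to 16.3%), so the share did not simply rise with signal, and that class held 388 of the 459 left-out peaks. These totals include the peaks at the 3 genes, and the intervals cover the counting of peaks only. By rank of signal, the 7 strongest left-out peaks at the 3 genes stood between 20 and 45 among all 99800.

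The other 9 left-out peaks of 1000 or more lay together on 2L, near Rh5, a rhodopsin gene of photoreceptors, Hacd1 and lncRNA:CR44588. The 5 strongest peaks of 2L in no thresholded list were among them, with signals of 6168, 5674, 3025, 2831 and 2245. Thus the strongest left-out peak at ssp3 was below each of these 5. Of 13968 protein-coding genes, 60.5% had a strong peak within 10 kb, 8.81% a strong left-out one, and 0.165%, or 23 genes, a left-out one of 1000 or more, with ssp3, COX7AL2 and cbt among the 23 by choice.

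**Figure D3:**
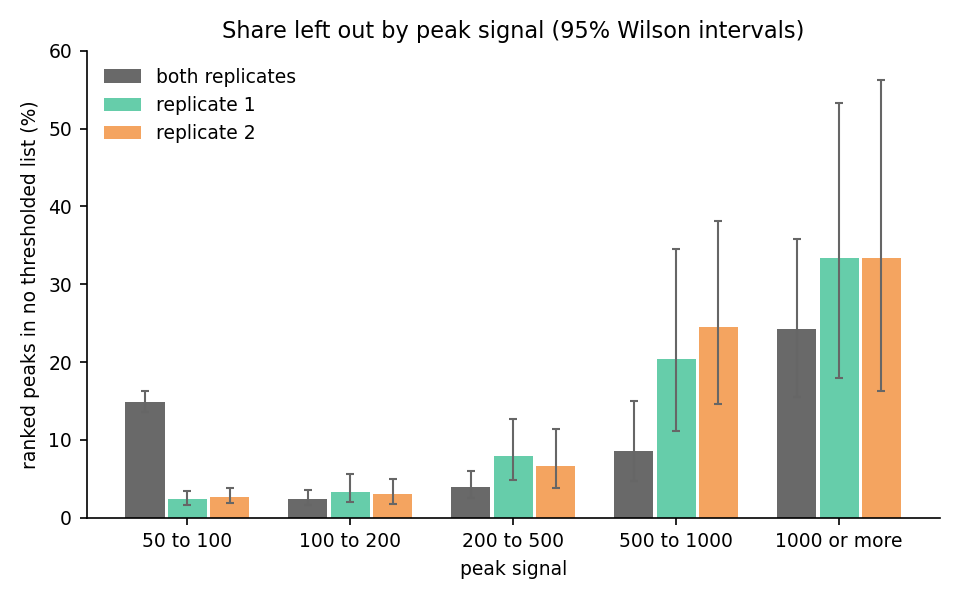
Share of ranked peaks in no thresholded list (%) by class of peak signal, for the lists of both replicates, replicate 1 and replicate 2; error bars are 95% Wilson intervals, which cover the counting of peaks only. The share in the list of both replicates is 14.9% at 50 to 100, 2.42% at 100 to 200 and 24.2% at 1000 or more, and the peaks at the 3 genes are included. Signals in the list of both replicates are near the sum of the replicates' signals, so a class is not the same across the lists.

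Some peaks at ssp3 and COX7AL2 were wide, while others there were narrow, down to 123 bp at ssp3 and 207 bp at COX7AL2. In the main ranked list 99.1% of peaks were 336 bp wide, and 80.2% of those with a signal of 50 or more. None of the 16 left-out peaks had that width, and 3 held peaks did, all at cbt. In the replicates' lists the commonest width was 320 bp, and 3 left-out peaks had it in replicate 1 and 2 in replicate 2. Counting each interval once, 5 of the 10 left-out intervals were 500 bp or wider (524, 540, 855, 1079 and 2130 bp), as was 1 of the 10 held ones (787 bp). Only 43 of 4313 intervals of strong peaks in the whole list, or 0.997%, were that wide. Among held intervals of the whole list, 5.12% reached 500 bp at a signal of 200 or more. At 1000 or more it was 20 of 49, or 40.8%, with a median of 440 bp. The left-out intervals at the 3 genes with a summit of 1000 or more were 340, 524, 855, 1079 and 2130 bp wide.

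At cbt the widths were 94, 141, 192 and 340 bp for the left-out peaks in the main list. The peaks with 94 and 141 bp there were 320 bp wide in each replicate's list. The one with 192 bp had 320 bp in replicate 1 and 168 bp in replicate 2, and the strongest, with 340 bp, had 306 and 323 bp. The 2130-bp interval at COX7AL2 was in 2 pieces in each replicate's list, of 884 and 1282 bp in replicate 1 and of 1416 and 572 bp in replicate 2. The 1079-bp interval was 1055 bp wide in replicate 1 and 1016 bp in replicate 2. The ssp3 interval was similar throughout, with 855 bp in the main list, 843 bp in replicate 1 and 793 bp in replicate 2.

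**Figure D4:**
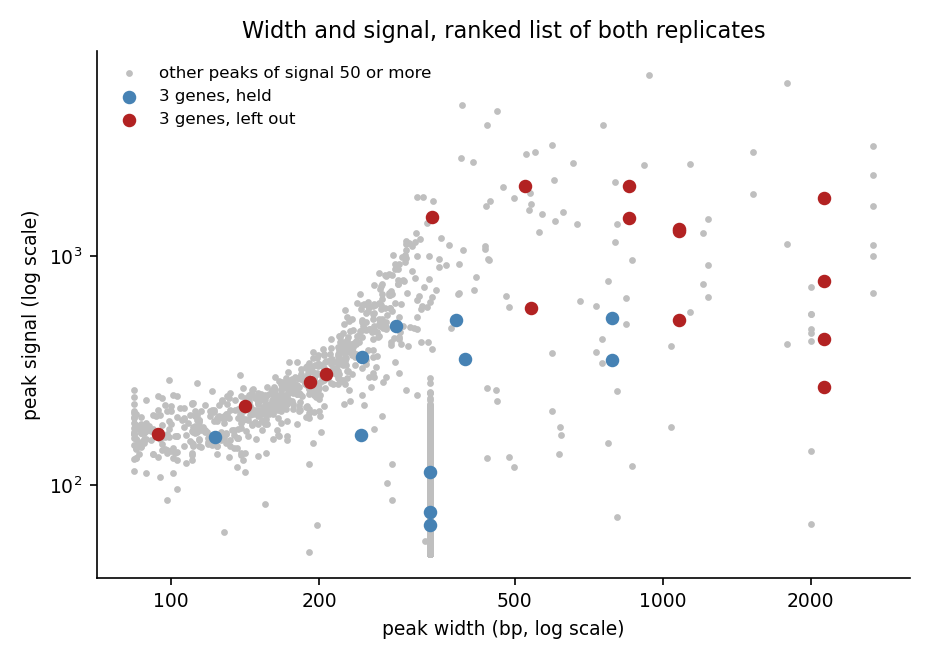
Peak signal against peak width (bp), both on log scales, for the 4350 peaks of signal 50 or more in the list of both replicates, with the peaks at the 3 genes left out (red) and held (blue). The column of points at 336 bp holds 80.2% of the strong peaks, and the left-out peaks of this list lie off it, from 94 to 2130 bp.

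The spacing of summits at the 3 genes is given as a description, because the genes were picked for their strong peaks. The median distance between neighbouring strong summits was 730 bp at COX7AL2 (228 to 5989 bp, 13 gaps), 612 bp at ssp3 (447 to 1598 bp, 5 gaps) and 1818 bp at cbt (877 to 7565 bp, 6 gaps). Over all strong summits it was 10700 bp, with gaps up to 4704729 bp. The gaps at the 3 genes were taken only within each gene's window, which limits their length, so nothing is read from the difference. Joined where neighbours lay within 5 kb, 13 summits at COX7AL2 formed the third largest of 2895 runs by number of summits and by summed signal. The 6 summits at ssp3 formed the run with rank 24 by number and 9 by summed signal. At cbt 5 summits, with 1 beyond the 10-kb window, had rank 43 by number and 21 by summed signal.

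The left-out peaks lay in stretches of 2L without any thresholded peak. The stretch was 14205 bp at COX7AL2, with 10 strong ranked peaks inside it, and 14734 bp at cbt, with 4. Neither was unusual in length: of 772 such stretches on 2L, 340 were longer than the first and 332 longer than the second, and the median was 10665 bp. At ssp3 it was 81312 bp, with 67 longer, and it ran across the whole ssp3 gene and beyond its 3' end. There the left-out interval sat at its end, 769 bp from the nearest held peak. Inside these stretches no weaker ranked peak scored 830 or more; the highest score was 700.

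The sequence under the peaks was unique in the genome. Every 31-base stretch of the 20 intervals occurred once over both strands of the whole assembly, and none overlapped an annotated transposon. Median base composition of the left-out summits differed by gene. Within 50 bp of the summit, the G and C content had a median of 55.0% over the 2 left-out summits at ssp3. It was 52.0% over the 10 at COX7AL2 (37.6 to 64.4%) and 30.7% over the 4 at cbt (23.8 to 37.6%). The held summits at cbt had 34.7%, 36.6% and 52.5%. Elsewhere, the median was 33.7% over the 3873 held strong peaks and 45.5% over the 50 of those with a signal of 1000 or more.

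The word GAGCGNGAC, searched on both strands, was chosen after the sequences of these peaks had been seen, so its counts are a description. It lay within 50 bp of 3 of the 16 left-out summits, 2 at COX7AL2 and 1 at ssp3, and of 0 of the 11 held summits. It occurred in that window at 0.181% of the other 3873 held strong peaks, and in 0.189% of the 101-base tiles of 2L. Of the 10 left-out intervals 4 contained it, 3 at COX7AL2 and 1 at ssp3, as did 1 held interval upstream of ssp3. Held peaks of 1000 or more elsewhere are nearer to these in signal and width. Among them the word lay within 50 bp of 0 of 50 summits, within 100 bp of 3, or 6%, and in 5 of 49 intervals, or 10.2%. Wide intervals hold any word more often: tiles of 855 bp on 2L held it in 1.68% of cases and tiles of 2130 bp in 4.10%. None of the cbt peaks contained these letters, which says nothing about the factor there.

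All 7 occurrences in the 20 intervals are shown on the strand that carries the word, with 8 bases on each side, because 4 distinct left-out intervals and 1 held one share it. Capitals mark the word.
ssp3, left out, plus strand, 2L:18944284-18944292: ccgcgggcGAGCGAGACaacccgag
ssp3, left out, plus strand, 2L:18944309-18944317: ctccggcaGAGCGGGACagttagag
ssp3, held, plus strand, 2L:18947665-18947673: gcaagtgcGAGCGGGACgactgctg
COX7AL2, left out, plus strand, 2L:2193593-2193601: actggcgcGAGCGGGACggaaccag
COX7AL2, left out, minus strand, 2L:2193643-2193651: gcgggtgcGAGCGGGACgtcgactg
COX7AL2, left out, plus strand, 2L:2197064-2197072: gtaagagcGAGCGAGACgaccgtcg
COX7AL2, left out, plus strand, 2L:2200355-2200363: aacgctgcGAGCGAGACagcgatag
The centre of the word lay 3 bp from the strongest COX7AL2 summit and 39 bp from the strongest ssp3 summit in the nearer of its copies there. At the held ssp3 interval it lay 189 bp from the nearest summit, and at the left-out COX7AL2 copy at 2200355 it lay 164 bp away. The other left-out copies lay 17, 47 and 64 bp from their nearest summits.

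Genes related to the 3 by name or pathway were counted by the same 10-kb window, beside the 60.5% of all protein-coding genes with a strong peak and the 8.81% with a left-out one. Of 18 genes for small subunits of cytochrome c oxidase and their relatives, 14 had a strong peak within 10 kb, and 2 had a left-out one: COX7AL2 and cype, whose left-out peak had a signal of 50.02. COX7B, COX5B and COX5BL followed COX7AL2 in signal, with 417, 417 and 417, all held. COX5B and COX5BL share their peaks. Other pairs in this list also had the same number of strong peaks and the same highest signal, so the 14 genes are not 14 separate places. Of the 5 short spindle genes, ssp6 (140) and ssp2 (56.0) had held peaks besides ssp3, and ssp5 and ssp7 had none of 50 or more.

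Of 24 genes listed with cbt, in Jun kinase or BMP and activin signalling, in sugar sensing or in the Krüppel-like family, 20 had a strong peak and 3 a left-out one. Besides cbt these were dar1, another Krüppel-like factor, with 51.0, and puc, the phosphatase that restrains Jun kinase, with 55.5. The strongest held peaks were those at Med, the common Smad (629), bigmax, the partner of the sugar sensor Mondo (347), and shn, a cofactor of the BMP pathway (252). Mondo itself had 144. The counts depend on the window: with a summit within 500 bp of a start site, the genes with a strong peak were 6 of the 18, 1 of the 5 and 5 of the 24. No share over all protein-coding genes is given at that distance, so nothing is read from these smaller counts. In each of these lists no gene but the 3 chosen ones had a left-out peak above 55.5.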

How the data were processed

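Anti-GFP ChIP-seq peak lists of 2 biological replicates (1 group) were used. Per the labels, the assembly is dm6 and sonication left fragments of 200 to 800 bp. Each deposited list gives an interval, a summit, a peak signal of unstated scale and an IDR score. The ranked lists also give the −log10 of the IDR, as the authors deposited it. The sources used here do not give the aligner or the peak caller. No read counts were used, so the depth of each sample is unknown and the precision of a signal is unknown with it.

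The 8 lists were read as deposited. Strong means a signal of 50 or more, within 10 kb of a gene by interval. Held means an overlap of 1 bp with a peak of any of the 4 thresholded lists. Replicate summits were paired within 100 bp. Genes came from Ensembl release 115 (BDGP6.54), sequence from RefSeq (the dm6 assembly too), with chromosome lengths checked; coordinates are 1-based. Sequence counts cover 7 chromosomes. The genes named are the 3 members, the genes nearest to or overlapping their peaks, up to 3 further genes per list with the highest signal, list genes with a left-out peak, and those nearest to the 5 strongest left-out peaks of 2L. Mondo, ssp5, ssp7 and MED15 were added after their values were seen. The 3 genes, the gene lists and the settings were chosen with earlier results of these data known. The overlap rules, among them a summit within 100 bp, and the word search were tested on simulated peaks. The step that pairs replicate summits and takes their signals was not. Alternatives were other windows, signal limits, overlap rules, lists and pairing distances. Python 3.11.15 with numpy 2.4.6, pandas 2.3.3 and scipy 1.17.1 was used. Peaks are not replicates, and no test was run.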

Additional observations from a re-analysis of the deposited data

How the results depend on the processing

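The 16 left-out peaks stayed 16 with windows of 5 and 20 kb, with distance taken from start sites, with a signal limit of 100 and under each other overlap rule; the replicate lists gave 16 and 17. A signal limit of 25 gave 66 peaks at the 3 genes with 54 left out, and the share of all ranked peaks held was then 16.5%. The count of held peaks was 7 with a window of 5 kb and 17 with 20 kb. The share of all strong peaks held, 89.4%, was 95.9% at a limit of 100, 85.8% at a limit of 500, 88.0% by identical summits and 81.4% by the main thresholded list alone. It was 94.2 to 94.8% in the lists of a single replicate, each against its own thresholded list. The median width of the 27 peaks, 396 bp, was 336 bp with shared intervals counted once. The median spacing, 843 bp, was 779.5 to 780 bp in the single replicates. The word lay in the intervals of 10 left-out summits rather than near 3. With summits within 500 bp of a start site, the genes with a strong peak numbered 6 of the cytochrome c oxidase list, 1 short spindle gene and 5 of the cbt list. For that distance no share over all genes is given. The causes of these shifts were not tested. No paired analysis was possible because there is 1 group of 2 replicates and no comparison between groups. With no read counts and 2 replicates, an error of a difference between single peaks would be imprecise, and none is given.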

Other observations

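The left-out intervals near Rh5 on 2L had features in common with those at ssp3 and COX7AL2. Of the 4 left-out intervals there with a signal of 1000 or more, all were 500 bp or wider and 3 contained GAGCGNGAC. Their summits had a median G and C content of 54.5%. Of the 20 held intervals of 1000 or more that were as wide, elsewhere in the genome, 3 contained the word. These are counts of intervals chosen with results known, and no test was run.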
